A study of Mus musculus with 4 samples.

Results

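Cadherins, Epcam and the transcription factors of epithelial-to-mesenchymal transition (EMT) were examined in mouse kidney after cisplatin. The group held 9 genes chosen by symbol, out of 29190 genes in the deposited count table, and each symbol had 1 row. They were the epithelial adhesion genes Cdh1, Cdh16 and Epcam, the cadherins Cdh2 and Cdh6, and the repressors Snai1, Snai2, Zeb1 and Zeb2. RNA came from renal tissue of male C57 mice of 8 weeks. The cisplatin group (2 libraries) received 30 mg/kg, and the control group (2 libraries) received physiological saline. The study used 18 mice in 3 groups and killed cisplatin animals at 24 or 48 h, and the labels do not say which time the libraries represent. The design text calls the replicates biological, without saying whether a library came from 1 mouse or a pool. The p-values rest on the spread between these libraries, estimated with information shared across genes. The comparison asks which kidney transcripts differ after this nephrotoxic platinum drug.

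Cadherins are membrane proteins that bind their like on neighbouring cells in the presence of calcium. The classical members, among them Cdh1 (E-cadherin), Cdh2 (N-cadherin) and Cdh6 (K-cadherin), join the actin skeleton through catenins, whereas Cdh16 (kidney-specific or Ksp-cadherin) has a short cytoplasmic tail without the catenin binding region. In the kidney, Cdh16 lines the basolateral membrane of tubule cells, Cdh1 and Epcam mark mainly the segments beyond the proximal tubule, Cdh2 is found in the proximal tubule, and Cdh6 is known from the developing proximal tubule. In EMT, a programme of development and of carcinoma, the zinc finger proteins of the Snai and Zeb families bind E-box sequences and repress Cdh1, and Cdh2 often takes its place.

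E-boxes with the letters CAGGTG, which read CACCTG on the other strand, are the form that Snai and Zeb proteins bind. The bases upstream of 3 genes that were higher after cisplatin are shown because 2 of them, Epcam and Snai1, hold this form and Cdh6 does not. Of the 9 genes, 4 matched a RefSeq promoter window (GRCm38.p6). Cdh1 was not among them, so E-boxes before its start could not be examined. Each sequence is the 250 bases before the annotated start, 5′ to 3′ on the gene's strand, in lower case with E-boxes in capitals.
Epcam: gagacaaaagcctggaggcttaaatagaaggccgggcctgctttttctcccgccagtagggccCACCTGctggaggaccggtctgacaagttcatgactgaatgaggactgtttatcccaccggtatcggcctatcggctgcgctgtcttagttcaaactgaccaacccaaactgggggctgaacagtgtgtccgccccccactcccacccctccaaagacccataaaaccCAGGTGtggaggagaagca
Snai1: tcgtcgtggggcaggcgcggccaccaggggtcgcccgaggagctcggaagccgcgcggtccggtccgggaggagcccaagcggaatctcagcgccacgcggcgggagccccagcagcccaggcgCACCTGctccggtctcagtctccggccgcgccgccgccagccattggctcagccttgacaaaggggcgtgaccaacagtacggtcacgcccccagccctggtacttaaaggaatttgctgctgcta
Cdh6: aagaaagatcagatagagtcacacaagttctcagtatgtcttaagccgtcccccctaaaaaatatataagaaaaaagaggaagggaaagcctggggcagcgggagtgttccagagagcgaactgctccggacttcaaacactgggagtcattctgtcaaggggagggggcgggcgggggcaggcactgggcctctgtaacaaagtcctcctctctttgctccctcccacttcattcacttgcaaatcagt
The Epcam stretch is chr17:87635729-87635978 on the plus strand, and its E-boxes begin 187 and 19 bases before the start. The Snai1 stretch is chr2:167537945-167538194, also on the plus strand, with an E-box beginning 126 bases before the start. The Cdh6 stretch is chr15:13173676-13173925 on the minus strand. Zeb2, the fourth gene with a window, had 0 matches at each of its 4 annotated starts. Among all 32851 windows of this length, 17.2% held at least 1 match on either strand, and a match in these letters is a description and not a measured binding site.

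Library totals ran from 20662475 to 27122403 counts. Levels are given as CPM, counts relative to library size scaled by the trimmed mean of M values (TMM), with mean ± SD of 2 libraries. Differences were tested with edgeR's quasi-likelihood method over 17419 genes, with Benjamini-Hochberg adjustment and a threshold of 0.05 on the adjusted p, past which a gene counts as called. In this comparison 73.6% of all tested genes were called, 37.2% higher and 36.4% lower after cisplatin, and in 86.3% the CPM of the 2 groups did not overlap. With library size alone as the scaling, 9110 genes were called higher and 4207 lower, and the median log2 fold change of all tested genes moved from 0.04 to 0.41. All 9 genes passed the filter on low counts, Snai1 through the cisplatin libraries alone.

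The 9 genes did not move as a block. After cisplatin Cdh1, Epcam, Cdh6, Snai1 and Zeb1 rose, Cdh16, Cdh2 and Zeb2 fell, and Snai2 did not pass the test. This makes 8 of 9 called against 73.6% of all tested genes, and 8 of 9 without overlap between groups against 86.3%, with a median log2 fold change of 0.40 against 0.04 for all. Of the repressors of Cdh1, Snai1 and Zeb1 were higher and Zeb2 was lower, while Cdh1 itself was higher. Both the most abundant cadherin of the saline kidney and N-cadherin were lower. The call for Zeb2 was absent with library size alone.

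**Figure D1:**
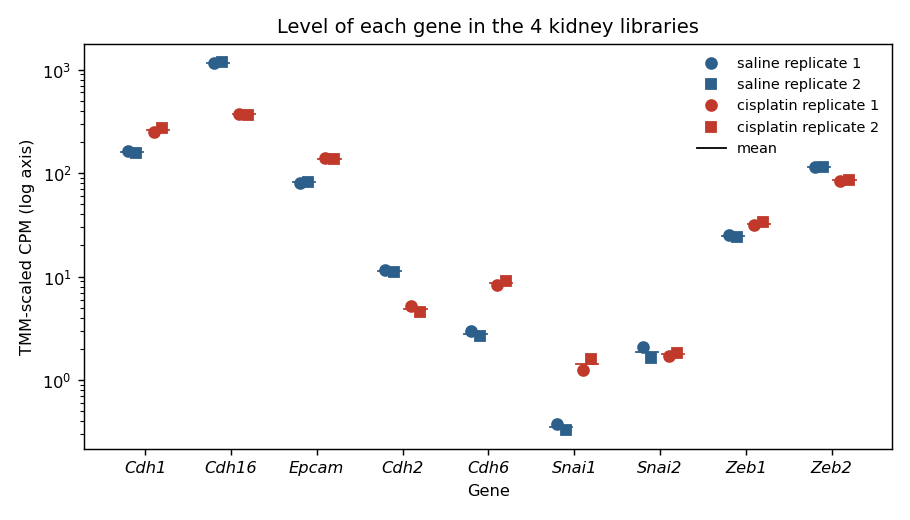
TMM-scaled CPM on a log axis for each of the 9 genes, with saline libraries in blue, cisplatin libraries in red and a line at each group mean. The groups stand apart for 8 genes and overlap for Snai2, where saline held both the highest and the lowest library.

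Cdh1 and Epcam rose by nearly equal amounts. Cdh1 (ENSMUSG00000000303.10, chromosome 8, 106603351 to 106670246, plus strand, GRCm38) stood at 163 and 157 CPM in the saline libraries and at 252 and 270 CPM in the cisplatin libraries. Both cisplatin values lay above both saline values, from a mean of 160.2 (SD 4.35) to one of 260.8 (SD 12.98) CPM. The gene rose 1.63-fold, a log2 fold change of 0.70 (standard error, SE, 0.06) by edgeR's quasi-likelihood test (Benjamini-Hochberg adjusted p = 2.69e-09). Epcam (ENSMUSG00000045394.8, chromosome 17, 87635979 to 87651129, plus strand), a homophilic adhesion protein of epithelia that is no cadherin, stood at 80.95 and 82.85 CPM after saline and at 139 and 137 CPM after cisplatin. The groups did not overlap, and the log2 fold change was 0.75 (SE 0.06; edgeR adjusted p = 2.68e-10). Of all tested genes 50% changed by at least as much as Cdh1 in either direction and 47.4% by at least as much as Epcam, so both changes were of ordinary size here.

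Cdh16 fell, and from the highest level of the group. The gene (ENSMUSG00000031881.5, chromosome 8, 104601911 to 104624396, minus strand) had 1163 and 1172 CPM in the saline libraries and 376 and 367 CPM in the cisplatin libraries. Replicates differed by little beside the gap between groups, 1167 ± 6.19 against 371 ± 6.38 CPM. The log2 fold change was -1.65 (SE 0.06), a level 3.14-fold lower after cisplatin (edgeR adjusted p = 9.58e-16), and 17.3% of tested genes changed by as much. In the same libraries the summed CPM of 15 proximal tubule markers was 57191.5 and 55744 after saline and 20490 and 19862 after cisplatin, with all 15 lower and none at 0. Kap made up much of that sum and fell least, by 0.77 on the log2 scale. Without it the sum was 31375 and 32171 after saline and 5727 and 5653 after cisplatin. The sum of 10 markers of the thick limb and distal tubule was 8048 and 8139 against 2515 and 2428, again with all 10 lower. Of all tested genes 36.4% were called lower and 37.2% higher. The sum of 12 collecting duct markers was 418 and 422 against 390 and 386, with 4 that rose and 6 that fell. That sum held Krt18, a keratin of simple epithelia that rose; without it the sum was 405 and 409 after saline and 262 and 265 after cisplatin. RNA of the bulk tissue cannot tell fewer cells of a type from less RNA per cell. The part of these shifts in the values of Cdh16, Cdh1, Epcam, Cdh2 and Cdh6 was not tested.

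The cadherins Cdh2 and Cdh6 moved in opposite directions. Cdh2 (ENSMUSG00000024304.12, chromosome 18) had 215 and 273 counts after saline, or 11.6 and 11.2 CPM, and 124 and 119 counts after cisplatin, or 5.23 and 4.59 CPM. Both cisplatin libraries were lower, with a log2 fold change of -1.22 (SE 0.14; edgeR adjusted p = 2.86e-07). Cdh6 (ENSMUSG00000039385.4, chromosome 15, 13028701 to 13173675, minus strand) had 55 and 65 counts after saline, or 2.98 and 2.66 CPM, and 195 and 233 counts after cisplatin, or 8.22 and 8.98 CPM. No library of one group reached the other, and the log2 fold change of Cdh6 was 1.62 (SE 0.18), or 3.07-fold (edgeR adjusted p = 8.03e-08). At least a 2-fold called rise was found in 19.2% of tested genes and at least a 2-fold called fall in 16.1%. On log2 of FPKM plus 1, which compresses low values, the differences were 1.01 for Cdh6 and -0.46 for Cdh2, and both passed with limma-trend.

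Of the EMT repressors, Snai1 showed the largest fold, from the smallest level in the saline libraries. Snai1 (ENSMUSG00000042821.7, chromosome 2, 167538195 to 167542814, plus strand) had 7 and 8 counts in the saline libraries and 30 and 42 in the cisplatin libraries. This corresponds to 0.379 and 0.328 CPM against 1.27 and 1.62 CPM, with both cisplatin libraries above both saline libraries. The log2 fold change was 2.03, and its SE of 0.42 was the widest of the 9 genes (edgeR quasi-likelihood, adjusted p = 0.000239). Only the cisplatin libraries reached the 0.448 CPM that the filter asks of unscaled values, so the gene could be tested only because it was higher there. With no filter on low counts it was called as well, and on log2 of FPKM plus 1 its difference was 0.52. Snai2 (ENSMUSG00000022676.6, chromosome 16, 14705852 to 14709385, plus strand), its close relative that also represses Cdh1, had 39 and 40 counts after saline and 41 and 48 after cisplatin. At 2.11 and 1.64 against 1.73 and 1.85 CPM the groups overlapped, and the log2 fold change was -0.05 (SE 0.28; edgeR adjusted p = 0.882). With this SE, a change of the size seen for Zeb1 was not detectable for Snai2 at this depth.

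The Zeb genes were far more abundant than the Snai genes and differed from each other in direction. Zeb1 (ENSMUSG00000024238.11, chromosome 18) had 462 and 593 counts after saline and 742 and 879 after cisplatin, or 24.6 ± 0.496 and 32.6 ± 1.84 CPM. On CPM the groups did not overlap, and the log2 fold change was 0.40 (SE 0.09; edgeR adjusted p = 0.000353), or 0.77 with library size alone. Zeb2 (ENSMUSG00000026872.14, chromosome 2, 44983632 to 45117395, minus strand) stood at 113.6 and 113.7 CPM after saline and 83.7 and 86.0 CPM after cisplatin. With TMM this was a fall, at -0.42 on the log2 scale (SE 0.05; edgeR adjusted p = 8.44e-07), and the value was -0.06 with library size alone (edgeR adjusted p = 0.468). Limma-trend on FPKM did not call it either, at -0.15 with a pseudocount of 0.1 (adjusted p = 0.219) and -0.13 with a pseudocount of 1 (adjusted p = 0.235). Against the median of all genes under the same scaling, which was 0.41 with library size alone, Zeb2 stood lower in both scalings. A change of scaling moves all genes by nearly the same amount, so this adds no further observation and does not restore the call.

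An antisense gene, Zeb2os, overlaps Zeb2 on the other strand and had 180 and 195 counts after saline and 88 and 64 after cisplatin. It fell with a log2 fold change of -1.52 (SE 0.19; edgeR adjusted p = 8.19e-07), and its counts came to at most 8.57% of those of Zeb2 in a library. Gm10125, on the strand opposite to Zeb1, reached at most 15.6% of the Zeb1 counts and did not pass, at -0.45 on the log2 scale (SE 0.28; edgeR adjusted p = 0.153). The labels do not say whether counting used strand, so reads in the shared stretches cannot be assigned.

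Zeb genes are also active in endothelium, stroma, macrophages and podocytes, and the markers of those cells moved too. The summed CPM of 11 fibroblast and mural markers was 472 and 499.5 after saline and 1311 and 1305 after cisplatin, and that of 11 macrophage and monocyte markers 109 and 117 against 259 and 272. Of these lists 7 and 8 genes rose, and 1 fell in each. The shares of all tested genes called were 37.2% higher and 36.4% lower, and marker counts here stand beside these. The sum of 10 endothelial markers was 639 and 650.2 against 836 and 855 CPM, with 7 that rose and 2 that fell, and that of 9 podocyte markers 441 and 434 against 653 and 675 CPM, with 7 that rose and 1 that fell. None of these markers was at 0 in all libraries. Neutrophil markers, 8 of 9 in the table, summed to 4.16 and 2.91 against 34.5 and 31.9 CPM, with all 6 tested genes higher. Without Cxcr2 the sum was 1.35 and 0.778 CPM after saline and 21.1 and 19.6 CPM after cisplatin. With 0.778 CPM for all the others in saline replicate 2, at most 1 of them could reach the filter's 0.448 CPM there. Most of the 6 thus depended on their cisplatin libraries to enter the test. A gene tested only through its cisplatin libraries could only be higher there, so the count of 6 is not read as a result. T, NK and B cell markers summed to 5.89 and 4.83 against 6.57 and 6.31 CPM, with 2 of 7 tested genes higher and 5 not called, and without Cd79a the groups overlapped. Urothelial markers summed to 2.70 and 2.46 against 11.3 and 9.77 CPM, but of 4 tested genes 1 rose, 1 fell and 2 were not called, with a median of -0.83. Krt5, a keratin of basal cells, made the rise, and without it the sum was 2.60 and 2.42 after saline and 1.73 and 0.731 after cisplatin. The saline sums hardly changed without Krt5, which lay below the filter's minimum there and entered the test through its cisplatin libraries. The part of all these markers in the values of Snai1, Zeb1 and Zeb2 was not tested.

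**Figure D2:**
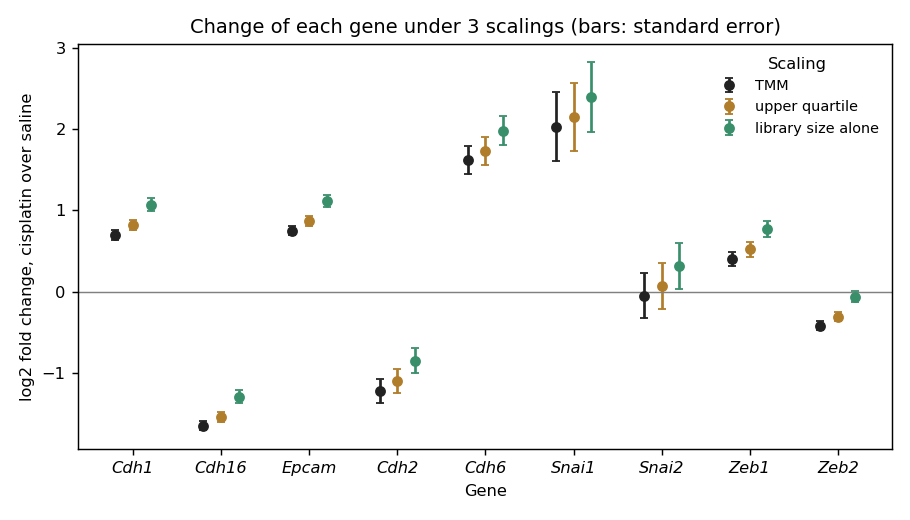
log2 fold change of each gene, cisplatin over saline, with its standard error under TMM, upper-quartile scaling and library size alone. The order of the genes is kept while all values shift upward, so that Zeb2 moves from -0.42 to -0.06 and Snai2 from -0.05 to 0.32.

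Levels of different genes were compared on FPKM, which is per transcript length and carries no TMM factor. In the saline libraries Cdh16 stood at 212 and 235 FPKM, followed by Epcam at 21.7 and 24.5 and Cdh1 at 20.2 and 21.4. Epcam and Cdh1 lay close, their means differing by little more than the spread between libraries. Zeb2 came next with 5.44 and 5.99 FPKM, then Zeb1 with 2.36 and 2.52, Cdh2 with 1.29 and 1.36, Cdh6 with 0.62 and 0.61, Snai2 with 0.57 and 0.49 and Snai1 with 0.13 and 0.12. In the cisplatin libraries the first 5 places were unchanged, at 87.55 and 83.94 FPKM for Cdh16, 47.65 and 45.97 for Epcam, 39.7 and 41.9 for Cdh1, 5.11 and 5.16 for Zeb2 and 3.77 and 4.01 for Zeb1. Cdh6, at 2.18 and 2.34 FPKM, now stood above Cdh2, at 0.74 and 0.64. Snai1 reached 0.55 and 0.69 FPKM and could not be ranked against Snai2, at 0.60 and 0.63, or against Cdh2, since their libraries overlapped.

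The makeup of the 4 cadherins shifted toward Cdh1. Of their summed FPKM, Cdh16 made up 90.6 and 91% in the saline libraries and 67.3 and 65.2% in the cisplatin libraries. The share of Cdh1 was 8.61 and 8.26% after saline and 30.5 and 32.5% after cisplatin, and that of Cdh6 0.265 and 0.236% against 1.67 and 1.82%. Cdh2 made up 0.551 and 0.526% after saline and 0.568 and 0.497% after cisplatin, so its groups overlapped by share. The sum itself was 234 and 259 FPKM after saline and 130.2 and 129 FPKM after cisplatin. A share rises when another member falls, so these values do not say how much each gene changed.

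Ratios of counts within a library do not depend on scaling between libraries. The log2 ratio of Cdh6 to Cdh16 was -8.61 and -8.78 after saline and -5.51 and -5.35 after cisplatin, a difference of 3.26. The ratio of Cdh16 to Cdh1, which was added after its values were seen, went from 2.83 and 2.90 to 0.58 and 0.44 (5.12-fold lower). The ratio of Cdh2 to Cdh1 went from -3.81 in both saline libraries to -5.59 and -5.88, which is 3.79-fold lower. These genes mark different tubule segments, and the part of segment shifts in this ratio was not tested. For Cdh6 to Cdh1 the values were -5.78 and -5.88 against -4.94 and -4.91. Epcam to Cdh1 was -1.01 and -0.92 after saline and -0.86 and -0.98 after cisplatin, and here the groups overlapped with a difference of 0.05. The summed Snai counts over the summed Zeb counts gave -5.80 and -6.13 against -5.26 and -5.11, a difference of 0.78. With 2 libraries against 2, an exact two-sided permutation test cannot give a p below 0.333, so no ratio was called.

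**Figure D3:**
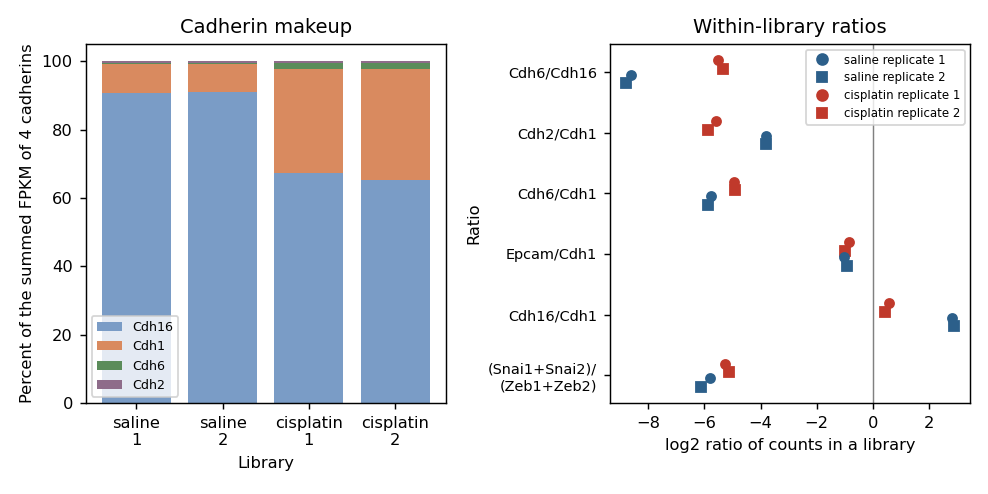
Left, percent of the summed FPKM of Cdh16, Cdh1, Cdh6 and Cdh2 in each library (stacked bars from 0). Right, log2 ratios of counts within each library, where saline (blue) and cisplatin (red) libraries stand apart for each ratio but Epcam to Cdh1.

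The junction genes around the cadherins were read from 7 lists of other genes, in which genes are named by their abundance, whatever their change. Of 24 other members of the cadherin superfamily 14 were tested, and 8 rose and 6 fell, against 37.2% and 36.4% of all tested genes. The median log2 fold change was 0.89 against 0.04 for all tested genes. On FPKM, where 22 were tested, the median was 0.07 with a pseudocount of 0.1 and 0.02 with 1. On counts with 22 tested, it was 0.88 with no filter and 0.87 with DESeq2. Fat1, a giant protocadherin, rose from 232 ± 1.23 to 514 ± 2.24 CPM. Cdh5, the cadherin of endothelium, rose from 36.3 ± 3.03 to 88.4 ± 0.189 CPM, while Cdhr5, which links brush border microvilli, fell from 113 ± 3.39 to 59.4 ± 2.37 CPM. Clstn1, a calsyntenin, passed as a fall with TMM, from 79.3 ± 2.86 to 67.4 ± 2.71 CPM, but under library size alone it stood at 0.13 on the log2 scale and did not pass. Among the rest, named after their values were seen, Cdh3 (P-cadherin) had 92 and 127 counts after saline and 358 and 405 after cisplatin. Cdh17, a relative of Cdh16 with the same short tail, had 0 and 1 counts after saline and 22 and 23 after cisplatin. Cdh4 (R-cadherin) had 36 and 41 counts after saline and 5 and 9 after cisplatin, and Cdh13, which is held by a lipid anchor, had 183 and 232 against 54 and 53. Cdh4, Cdh17 and Cdh24 did not reach the filter's minimum in every library, and entered the test through the group where they were high.

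Catenins and other partners at the adherens junction split evenly, with 9 of 18 tested genes higher and 9 lower and a median log2 fold change of 0.12. All tested genes split nearly evenly as well, with 37.2% higher and 36.4% lower. The median was 0.48 with library size alone, 0.41 with no filter on low counts, 0.44 with at least 1 CPM in 2 libraries and 0.40 with DESeq2. Ctnna3, a fall, entered the test through its saline libraries. Ctnnb1 (beta-catenin), which binds the tail of classical cadherins, stood at 651 ± 9.18 CPM after saline and 515 ± 2.57 CPM after cisplatin, and Ctnna1 (alpha-catenin), which links it to actin, at 371 ± 5.70 and 321 ± 7.70 CPM. Both passed as falls with TMM, but with library size alone their log2 fold changes were 0.03 and 0.16 and neither passed. Ctnnd1 (p120 catenin), which keeps cadherins at the membrane, rose from 162 ± 11.7 to 233 ± 9.40 CPM. Pkp4, of the same armadillo family, fell from 421 ± 0.665 to 133 ± 0.470 CPM. Of the whole list, 11 genes rose and 5 fell with library size alone.

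Desmosome genes mostly rose, with 7 of 8 tested genes higher, against 37.2% of all tested genes, and a median of 0.99. A called rise of at least 2-fold was found in 4, against 19.2% of all tested genes. Perp, a membrane protein of desmosomes that is also a p53 target, rose from 74.9 ± 3.94 to 245.0 ± 13.2 CPM. The plaque protein genes Dsp and Ppl rose from 42.8 ± 2.52 to 117 ± 1.26 CPM and from 7.55 ± 0.650 to 32.8 ± 1.32 CPM, and Pkp2 from 36.1 ± 3.75 to 54.7 ± 3.09 CPM. Evpl fell with TMM, by 0.38 on the log2 scale, and did not pass with library size alone.

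Among other EMT transcription factors and corepressors, 10 of 18 tested genes rose, 3 fell and 5 missed the threshold, with a median of 0.51. Of all tested genes 37.2% rose and 36.4% fell. The most abundant genes of this list changed little. Ctbp1, a corepressor that Zeb proteins recruit, stood at 82.8 ± 0.966 and 71.0 ± 2.89 CPM, and the E-box factors Tcf4 and Tcf12 at 71.3 ± 0.686 and 56.9 ± 1.18 CPM and at 66.3 ± 0.441 and 55.0 ± 2.37 CPM. These 3 passed as falls with TMM, and with library size alone they stood at 0.14, 0.04 and 0.10 on the log2 scale and did not pass. Hdac2, a histone deacetylase, averaged 64.3 ± 1.31 CPM after saline and 67.8 ± 0.0941 CPM after cisplatin, short of the threshold with TMM and a rise of 0.44 on the log2 scale with library size alone. Of genes named after their values were seen, Snai3, the third Snai gene, had 14 and 19 counts after saline and 119 and 102 after cisplatin. Twist1, another EMT regulator, had 11 and 10 against 12 and 19 counts and did not pass. Sox9, a factor of regenerating tubule cells, had 1 and 5 against 111 and 155 counts, and Runx1 had 50 and 53 against 414 and 469. Sox9, Twist1 and Twist2 did not reach the filter's minimum in every library; Sox9 and Twist2, both among the 10 that rose, reached it through their cisplatin libraries.

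Factors that maintain epithelial transcription and splicing changed in both directions, with 10 of 18 tested genes higher, 5 lower and a median of 0.70. The shares over all tested genes were 37.2% higher and 36.4% lower. Klf5 and Foxa1, among the 10 that rose, were tested only through their cisplatin libraries, with 1 and 8 and with 0 and 3 counts after saline. Hnf4a, the nuclear receptor of proximal tubule identity, fell from 709 ± 22.8 to 119 ± 1.14 CPM, and Tfcp2l1, a grainyhead-related factor of distal segments and the collecting duct, from 589.6 ± 13.8 to 382 ± 4.66 CPM. The ETS factor Ehf rose from 41.15 ± 3.17 to 78.9 ± 2.14 CPM and the kidney lineage factor Pax8 from 43.9 ± 2.73 to 63.3 ± 3.54 CPM. Grhl2, an activator of Cdh1 named after its values were seen, rose from 181 and 227 to 452 and 455 counts. The splicing factors Esrp1 and Esrp2, which keep epithelial isoforms, did not pass with TMM, at -0.05 (SE 0.12) and 0.07 (SE 0.09) on the log2 scale. With library size alone both passed as rises, at 0.32 and 0.44.

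Mesenchymal genes of EMT panels rose in 16 of 17 cases, against 37.2% of all tested genes, around a median of 1.66. A called rise of at least 2-fold was found in 12, against 19.2% of all tested genes. The collagen genes Col3a1 and Col1a2 rose from 74.2 ± 3.73 to 396 ± 3.60 CPM and from 55.0 ± 3.20 to 228 ± 0.574 CPM, and Sparc, a matrix glycoprotein, from 127 ± 2.86 to 369 ± 19.2 CPM. Itgav, an integrin subunit, stood at 373 ± 9.01 and 340.4 ± 14.7 CPM and missed the threshold (edgeR adjusted p = 0.051), while with library size alone it rose by 0.24 on the log2 scale. Vim (vimentin), named after its values were seen, rose from 460 and 625 to 1962 and 2278 counts. These genes belong to stromal cells as well, and Col1a1 and Col3a1 also stand among the fibroblast and mural markers, of which 7 of 11 rose in these libraries.

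Of the proteases that cleave cadherins and Epcam, with their inhibitors, 7 of 17 tested genes rose, 7 fell and 3 missed the threshold. These counts lie near the shares of all tested genes, 37.2% higher and 36.4% lower. The median of the list was -0.20. It was -0.07 without saline replicate 1, -0.10 without cisplatin replicate 1, -0.08 with upper-quartile factors, 0.17 with library size alone, and 0.10 and 0.07 on FPKM plus 0.1 and plus 1. Mmp3 and Mmp9, among the 7 that rose, were tested only through their cisplatin libraries, with 9 and 3 and with 2 and 2 counts after saline. Prss8 (prostasin), a membrane serine protease, fell from 292 ± 1.16 to 50.1 ± 0.0490 CPM, and Spint1, an inhibitor of such proteases, rose from 69.5 ± 0.607 to 152 ± 7.56 CPM. Of proteases named after their values were seen, St14 rose from 19.6 ± 2.37 to 104 ± 8.31 CPM. Mmp14 rose from 6.82 ± 1.30 to 28.1 ± 0.0405 CPM and Adam15 from 13.1 ± 1.96 to 34.7 ± 0.397 CPM. Named on the same basis, Psen2, Psenen, Adam17 and Aph1a passed as falls with TMM, at -0.59, -0.42, -0.21 and -0.20 on the log2 scale. None of these falls passed with library size alone. Adam10, the main sheddase of E-cadherin, stood at 109 ± 7.38 and 83.1 ± 2.38 CPM after saline and cisplatin. It passed as a fall with TMM, whereas with library size alone it stood at -0.02 on the log2 scale and did not pass. Under that scaling 9 genes of the list rose and 1 fell.

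**Figure D4:**
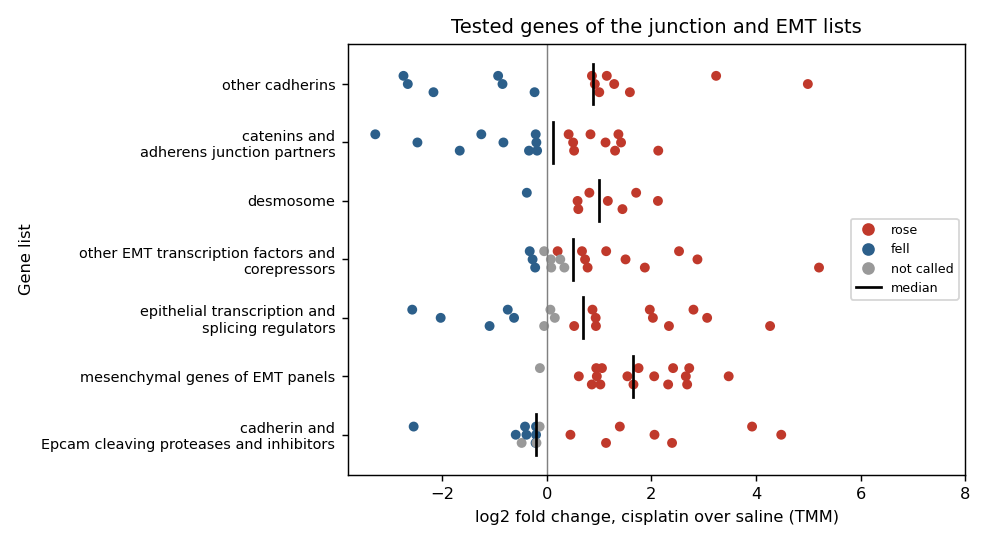
log2 fold change with TMM of each tested gene in the 7 lists, coloured by call, with a line at the list median. Desmosome and mesenchymal genes lie mostly to the right of 0, and catenins lie on both sides around a median of 0.12.

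Profiles over the 4 libraries most like those of Cdh1 and Snai1 were sought among the 15039 genes whose mean reached 1 CPM with counts in every library, by the Euclidean distance of log2 CPM centred on each gene's mean. For Cdh1 these were Ctdnep1 (distance 0.019), Arl16 (0.023) and Baz2a (0.024). Ctdnep1 stood at 14.2 and 13.5 CPM after saline and 21.7 and 23.0 CPM after cisplatin. For Snai1 they were Cdr2l (0.067), Stil (0.089) and Phkg1 (0.091), and Cdr2l stood at 3.52 and 2.99 against 12.3 and 14.9 CPM. Over 4 libraries in 2 groups such a likeness rests almost wholly on the group difference.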

How the data were processed

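The 4 kidney libraries (2 cisplatin, 2 saline) were directional, made after ribosomal RNA removal and read as 150 nt pairs, per the labels' protocols. The authors deposited raw read counts for 29190 genes and FPKM values for 29157 genes. The submitters' processing notes list the build GRCm38 and the tools TopHat2, bcl2fastq and edgeR, with no version; the counting program, strand setting and annotation were not given in the sources used. Groups came from the treatment label. The counts entered edgeR 4.0.16 under R 4.3.3 (filterByExpr, TMM factors between 0.861 and 1.15, quasi-likelihood F test, 2 residual degrees of freedom). The standard error of a log2 fold change followed from its F statistic. The procedure was tested on simulated data in which few genes changed, evenly in both directions. Far more genes were called in these libraries, so the simulation did not check the scaling under such wide change.

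A count of 3 corresponded to 0.111 to 0.145 CPM before scaling, and such floors cover counting error only. Replicates differed beyond sampling noise (chi-square per degree of freedom 11.5 for cisplatin and 36.6 for saline). Coordinates came from GENCODE M21 (GRCm38). Of the list genes, 6 were found in the table under an older symbol. The rule for named genes took the 9 members, the 4 most abundant tested genes of each list, and the 3 nearest profiles of Cdh1 and Snai1. Other genes named (further list members, markers and overlapping genes) fall outside it and were chosen after their values were seen. A gene that this rule names is not reported here. The 9 genes and the lists were chosen with earlier results of these data known. Alternatives were other scalings, filters, DESeq2 1.42.0, limma 3.58.1 trend on log2 of FPKM plus 0.1 or 1, a replicate block, each library left out and, chosen after seeing the data, protein-coding nuclear genes alone and marker sums without the gene that moved most. Plots used matplotlib 3.10.9.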

Additional observations from a re-analysis of the deposited data

How the results depend on the processing

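Cdh1, Epcam, Cdh6, Snai1, Zeb1, Cdh16 and Cdh2 kept their direction and their call under every alternative run. Zeb2 lost its call at -0.06 with library size alone, -0.15 on FPKM plus 0.1 and -0.13 on FPKM plus 1. Snai2 was not called anywhere and changed sign to 0.07 with upper-quartile factors, 0.32 with library size alone, 0.19 and 0.08 on FPKM plus 0.1 and plus 1, 0.11 without saline replicate 1 and 0.0 with protein-coding nuclear genes alone. The cause of these changes was not tested. Genes called lower numbered 4207 with library size alone and 3804 and 3784 on FPKM plus 0.1 and plus 1, against 6333. In the lists, falls changed to 5 for catenins and partners, 0 for desmosome, 0 for other EMT factors and 1 for proteases, both with library size alone and on FPKM at either pseudocount, to 4 for proteases with upper-quartile factors, and to 1 for mesenchymal genes with relative log expression factors, no filter and DESeq2. The median of other EMT factors ranged from 0.29 with DESeq2 to 0.87 with library size alone, that of epithelial regulators from 0.28 on FPKM plus 1 to 1.06 with library size alone, and that of desmosome genes from 0.60 on FPKM plus 1 to 1.36 with library size alone. Leaving out 1 library gave 11490 to 12504 called genes, 8 members called each time, and log2 fold changes from 0.65 to 0.75 for Cdh1, -1.67 to -1.64 for Cdh16, 1.83 to 2.19 for Snai1 and -0.24 to 0.11 for Snai2. The Epcam to Cdh1 difference ran from -0.02 to 0.11, the lowest without cisplatin replicate 1, and mesenchymal falls from 0 to 1. The labels do not say that a replicate number marks a shared batch, and same-numbered libraries deviated with a correlation of -0.05. With the replicate block 12653 genes were called, and 8 members as in the fit without it. Counts of 7 and 8 in saline limit the fold of Snai1.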
